A study of Mus musculus with 12 samples.

Results

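The 10 genes described here encode the classical steps of MHC class I antigen presentation in the mouse and were chosen by their known function, with earlier results of these data known: the heavy chains H2-K1, H2-D1 and H2-T23, the light chain B2m, the peptide transporter and loading genes Tap1, Tap2 and Tapbp, the immunoproteasome subunits Psmb8 and Psmb9, and the regulator Nlrc5. Each symbol matched 1 Ensembl identifier among the 55536 genes of the count table, and all 10 members were among the 20263 genes that passed the filter on low counts. The libraries came from megakaryocytes (MKs), the platelet-producing cells, sorted from bone marrow (BM) and spleen of C57BL/6 mice of 8 to 12 weeks, male and female per the study's methods. The mice carried a Pf4-iCre transgene and a Rosa26 tdTomato reporter, and this reporter was shared by all groups. They had received saline or an i.p. injection of cecal slurry (CS), a suspension of gut bacteria that models sepsis, with s.c. saline against fluid loss after CS, and cells were taken on day 5. The 4 groups, saline and sepsis in each tissue, held 3 libraries each, and each library was made from 300 pooled cells that were CD45+, lineage-negative, tomato+, CD41+ and CD42b+. The study's text adds that CD138+ cells were excluded. Cre recombination is permanent, so any cell descended from a cell that once expressed Pf4-iCre keeps the label. The study's methods call the libraries of a group independent replicates and count n in mice, and the labels do not name the animals, so that libraries could not be matched between tissues by animal.

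MHC class I molecules are carried by nearly all nucleated cells and display short peptides from cytosolic proteins to CD8+ T cells. Proteasomes cut the proteins, TAP carries the peptides into the endoplasmic reticulum, tapasin holds the empty class I molecule at TAP, and the heavy chain leaves for the surface once it has bound both B2m and a peptide. Interferon gamma raises transcription of most of these genes and exchanges the catalytic subunits of the proteasome for immunoproteasome subunits, and NLRC5 is the transactivator that acts on class I promoters. MKs and platelets carry class I molecules on their surface.

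Of the 10 members, 8 lie on chromosome 17 in or next to the MHC, and Psmb9, Tap1, Psmb8 and Tap2 together span 34335 bases there. B2m lies on chromosome 2 and Nlrc5 on chromosome 8. RefSeq promoter entries (GRCm38.p6) were held for 8 of the 10 members, and no entry was held for Tap2 or Nlrc5. The windows below run from 200 bases before to 30 bases after the annotated start and are shown for the heavy chains that passed a test in these data, for their partner B2m, and for Tap1, whose start lies 226 bases from that of Psmb9 on the opposite strand so that their windows share 175 bases. Capitals mark matches on either strand to 4 patterns of letters: AANNGAAA (the core of an interferon regulatory factor site), GGGGATTCC (an NF-kB site), CCAAT (the CCAAT box) and TGACG (the core of a cyclic AMP response element). The windows are H2-K1 at chr17:34000318-34000547 on the minus strand, H2-D1 at chr17:35262894-35263123 on the plus strand, H2-T23 at chr17:36032672-36032901 on the minus strand, B2m at chr2:122147487-122147716 on the plus strand and Tap1 at chr17:34187356-34187585 on the plus strand.
H2-K1: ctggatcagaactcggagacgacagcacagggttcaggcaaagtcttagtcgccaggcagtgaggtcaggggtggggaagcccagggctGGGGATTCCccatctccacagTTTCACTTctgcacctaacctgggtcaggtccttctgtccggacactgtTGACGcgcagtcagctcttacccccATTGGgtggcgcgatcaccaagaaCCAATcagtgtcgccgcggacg
H2-D1: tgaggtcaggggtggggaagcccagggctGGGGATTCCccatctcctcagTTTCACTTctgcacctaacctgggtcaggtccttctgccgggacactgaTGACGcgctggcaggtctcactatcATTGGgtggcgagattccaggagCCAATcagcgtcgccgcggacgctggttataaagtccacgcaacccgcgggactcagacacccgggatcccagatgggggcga
H2-T23: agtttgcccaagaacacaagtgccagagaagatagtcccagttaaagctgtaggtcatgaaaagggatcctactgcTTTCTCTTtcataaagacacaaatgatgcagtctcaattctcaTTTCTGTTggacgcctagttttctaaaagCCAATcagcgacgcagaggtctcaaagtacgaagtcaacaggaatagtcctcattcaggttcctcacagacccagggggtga
B2m: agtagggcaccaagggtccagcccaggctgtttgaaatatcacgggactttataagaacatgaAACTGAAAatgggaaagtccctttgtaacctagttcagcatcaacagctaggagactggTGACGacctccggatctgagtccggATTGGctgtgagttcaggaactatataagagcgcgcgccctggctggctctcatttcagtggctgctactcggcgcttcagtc
Tap1: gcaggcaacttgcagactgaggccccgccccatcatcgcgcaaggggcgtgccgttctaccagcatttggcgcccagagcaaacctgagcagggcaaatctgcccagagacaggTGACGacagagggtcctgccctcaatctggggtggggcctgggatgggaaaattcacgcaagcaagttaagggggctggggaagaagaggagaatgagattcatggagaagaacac

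H2-K1 and H2-D1 held the same patterns in the same order, an NF-kB site, an interferon regulatory factor core, TGACG and CCAAT on both strands. All but the plus-strand CCAAT stood 60 bases further downstream in H2-K1. The plus-strand CCAAT began at base 8 from the start in H2-K1 and at base -53 in H2-D1. Their windows shared a run of 46 bases that contained the NF-kB site and was in no other of the 27025 promoters searched. The NF-kB letters stood in 51 of the 27025 windows (0.189%), 2 of them H2-K1 and H2-D1. The interferon regulatory factor core stood in 4 of the 8 member windows (H2-K1, H2-D1, H2-T23 and B2m) and in 19.1% of all windows, CCAAT in 6 of 8 members and 32.3% of all windows, and TGACG in 5 of 8 members and 18.1% of all windows. These matches are descriptions of letters and show neither binding nor use of the sites.

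Total counts were 7756762 to 27386184 per library. Scaling factors from the trimmed mean of M values (TMM) were 1.10 to 1.43 in BM and 0.713 to 1.04 in spleen, and levels below are CPM, the counts of a library put on a common scale by its total and this factor, on which 3 counts correspond to 0.105 to 0.405 CPM. The MK label was checked against 18 MK and platelet markers. Their summed level was 12419 to 49456 CPM in BM and 1400 to 3777 CPM in spleen. Pf4 and Ppbp were the highest of the 18 in each library. Pf4 was at 9606 to 30581 CPM in BM and 476 to 2439 CPM in spleen. Gp1ba, which encodes the CD42b used in the sort, was at 17.2 to 123 CPM in BM and 0.112 to 24 CPM in spleen. Markers of B cells behaved the other way, with a summed level over 12 genes of 75.2 to 308 CPM in BM and 3468 to 11079 CPM in spleen. In bulk libraries, fewer cells of a type and less RNA per cell cannot be told apart. Spleen sepsis replicate 3 stood apart for several members, and some of the results are also given without it. The correlations below include it.

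In CPM, a relative measure, 3 class I heavy chains were on average higher in the splenic libraries than in the BM libraries. Over all 12 libraries, with the tissue difference averaged over saline and sepsis, H2-K1, H2-D1 and H2-T23 were lower in BM than in spleen (edgeR quasi-likelihood test, Benjamini-Hochberg adjusted p under 0.05 over the 20263 genes), and B2m, Tap1, Tap2, Tapbp, Psmb8, Psmb9 and Nlrc5 did not pass. These 3 of 10 members stood against 2.68% of all genes tested that were lower in BM by the same rule. All 10 log2 fold changes were below 0, against 53.1% of all genes tested, but that of Tap2 turned above 0 with limma-voom and without spleen sepsis replicate 3. The median over the members was -1.22 on the log2 scale and that over all tested genes -0.13. With library size alone as the scale, the median of all genes became 0.38, a shift of 0.51, and the members' median minus that of all genes was -1.10 with TMM and -1.11 with library size. On the scale of library size alone, H2-K1 was the only member called.

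Within each treatment, where 3 libraries met 3, fewer members passed. After saline, 0 of 10 members were called with edgeR, 3 had an unadjusted p under 0.05, limma-voom called 1 and DESeq2 3, and 0.725% of all genes were called lower in BM with edgeR. Over all genes and in either direction, 2534 had an unadjusted p under 0.05, and edgeR called 253, limma-voom 185 and DESeq2 1313. After sepsis, H2-K1 alone was called of the 10, against 1.18% of all genes lower in BM with edgeR, while limma-voom called 4 members and DESeq2 3. Over all genes and in either direction, edgeR called 361, limma-voom 724 and DESeq2 1479. Counted without a model, all 6 splenic libraries were above all 6 BM libraries for 2 of 10 members, H2-K1 and H2-D1, and for 1.87% of all genes tested. After saline the 3 splenic libraries were above the 3 BM libraries for 5 members (H2-K1, H2-D1, H2-T23, B2m and Nlrc5) and for 7% of all genes, and after sepsis for 4 members (H2-K1, H2-D1, Tap1 and Psmb8) and for 7.02% of all genes.

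**Figure D1:**
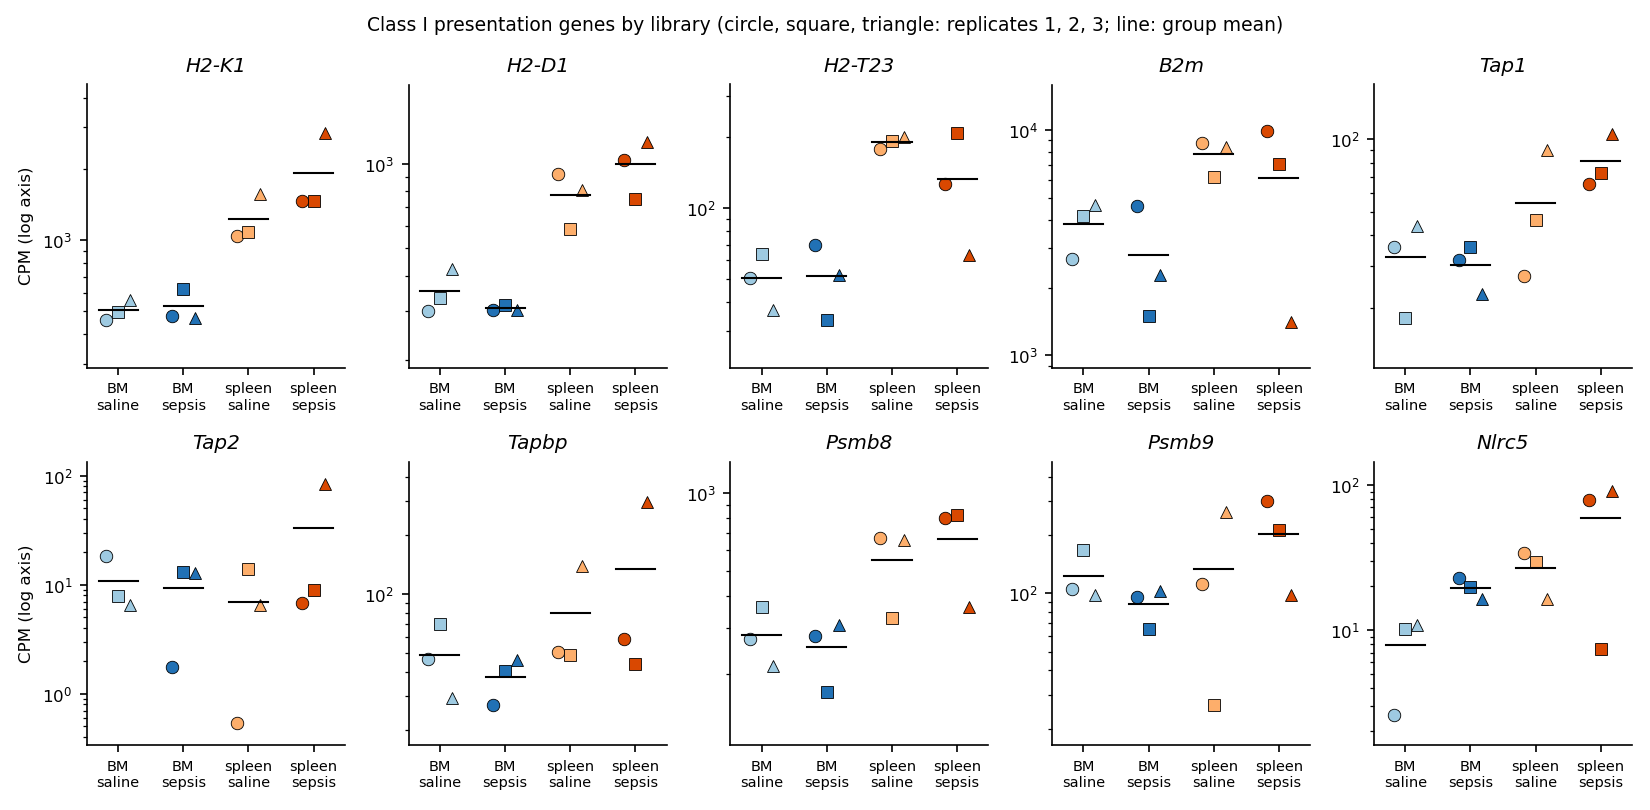
CPM (log axis) of each class I presentation gene in the 12 libraries, with replicates 1, 2 and 3 as circle, square and triangle and the group mean as a line. H2-K1 and H2-D1 lie higher in every splenic library than in any BM library, while spleen sepsis replicate 3 (triangle) is the lowest of all libraries for B2m and the highest for H2-K1, H2-D1, Tap1, Tap2, Tapbp and Nlrc5.

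H2-K1 (ENSMUSG00000061232, chr17:33996017-34000347, minus strand) encodes the K heavy chain, which presents peptides to CD8+ T cells. In BM it was at 461, 496 and 555 CPM after saline and at 479, 623 and 470 CPM after sepsis. In spleen it was at 1037, 1083 and 1570 CPM after saline and at 1464, 1461 and 2843 CPM after sepsis. The BM libraries lay within a narrow band and did not overlap the splenic ones in either treatment. The average tissue difference was -1.58 ± 0.31 (log2 fold change ± SE, adjusted p = 0.00406, edgeR), a 2.99-fold lower level in BM, and it was called under all 20 alternatives, with adjusted p between 1.76e-06 and 0.0352. Among saline libraries the difference was -1.29 ± 0.44 (adjusted p = 0.226), and among septic ones it was -1.88 ± 0.45 (adjusted p = 0.0315). This last call rested on many libraries, since the adjusted p was 0.0520 to 0.0750 when any BM saline library was left out, 0.0919 to 0.200 without any BM sepsis library, 0.0529 without spleen saline replicate 1, 0.0726 without spleen sepsis replicate 2 and 0.134 with library size alone. Without spleen sepsis replicate 3 it was -1.46 with an adjusted p of 0.0284.

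H2-D1 (ENSMUSG00000073411, chr17:35262730-35267499, plus strand) encodes the D heavy chain, the other classical chain of this strain. It was at 300.4, 334 and 423 CPM in BM after saline and at 303, 315 and 302 CPM after sepsis, the tightest group of any member with a coefficient of variation of 2.4%. The splenic libraries were at 920.1, 587 and 811 CPM after saline and at 1037, 752 and 1200 CPM after sepsis, again all above the BM range. The average tissue difference was -1.42 ± 0.31 (adjusted p = 0.00885, edgeR), a 2.67-fold lower level in BM. It was called under 17 of 20 alternatives and lost with library size alone (-0.89, adjusted p = 0.0656) and without BM saline replicate 1 (adjusted p = 0.0581) or BM saline replicate 2 (adjusted p = 0.0735). The difference after saline was -1.13 ± 0.43 (adjusted p = 0.312) and that after sepsis -1.70 ± 0.44 (adjusted p = 0.0553). The latter was called with an adjusted p of 0.0417 once spleen sepsis replicate 3 was left out.

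H2-T23 (ENSMUSG00000067212, chr17:36029773-36032855, minus strand) encodes the nonclassical chain Qa-1b, which presents leader peptides of other class I chains to NK cell receptors. It was at 50.3, 64.0 and 37.0 CPM in BM after saline and at 69.8, 33.6 and 51.8 CPM after sepsis. In spleen it was at 178, 193 and 201 CPM after saline, the most even splenic group of any member, and at 126, 209 and 63.1 CPM after sepsis. Of the splenic libraries, spleen sepsis replicate 3 alone lay within the BM range. The average tissue difference was -1.64 ± 0.41 (adjusted p = 0.0224, edgeR), a 3.12-fold lower level in BM. This call was the least stable of the 3, since it was kept in 9 of 20 alternatives and lost with library size alone, with no filter and when any of the 6 BM libraries, spleen saline replicate 1 or spleen sepsis replicates 1 or 2 were left out (adjusted p between 0.0523 and 0.139), although the log2 fold change stayed between -1.83 and -1.10 in all 20. Without spleen sepsis replicate 3 it was -1.78 with an adjusted p of 0.00526.

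The heavy chains share sequence, which can divide reads between them. Of the 50-base words in the transcripts of H2-K1, 9.63% also occurred in transcripts of another gene, and the shares were 12.8% for H2-D1 and 14.5% for H2-T23. H2-K1 and H2-D1 shared 4.08% of the words of H2-K1 with each other. How reads with several matches were counted is not given in the sources used here, so the split among the heavy chains is uncertain to that extent. A sum over 18 listed H2 heavy chain genes is not altered by how reads are split among those 18. It can be altered by reads dropped, counted more than once or shared with genes outside the sum. One such gene is H2-T-ps, which held 183 of the words of H2-T23. The sum was 917 to 1227 CPM in BM and 2313 to 4776 CPM in spleen, with 72.2% to 87.7% of it from H2-K1 and H2-D1. Per kilobase of exon, the ratio of H2-K1 to H2-D1 was 1.15 to 1.74 in BM and 0.989 to 2.08 in spleen, so the tissues overlapped in the balance of the 2 classical chains.

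B2m (ENSMUSG00000060802, chr2:122147686-122153083, plus strand), the light chain shared by all class I heavy chains, had the highest level per kilobase of exon of the members in each library. Its coefficient of variation was 26.6% to 70.8% in 3 of the groups, above those of H2-K1 and H2-D1 there, and 17.7% in spleen saline, below them. It was at 2689, 4163 and 4649 CPM in BM after saline and at 4596, 1502 and 2284 CPM after sepsis. The splenic libraries were at 8748, 6216 and 8444 CPM after saline and at 9945, 7029 and 1410 CPM after sepsis, so the highest and the lowest values of the data both came from septic spleen. The average tissue difference was -1.08 ± 0.40 (95% confidence interval -1.91 to -0.25, adjusted p = 0.132, edgeR) and did not pass. Leaving out spleen sepsis replicate 3 gave -1.29 with an adjusted p of 0.00132, leaving out BM sepsis replicate 1 gave -1.33 with an adjusted p of 0.0314, and DESeq2 (adjusted p = 0.0327), limma-voom (0.00704) and the fit with no filter (0.000230) also called it.

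Tap1 and Tap2 encode the 2 chains of the peptide transporter, and Tapbp encodes tapasin, which bridges TAP and the empty class I molecule. Tap1 (ENSMUSG00000037321, chr17:34187553-34197225, plus strand) was at 36.0, 18.2 and 43.8 CPM in BM after saline and at 31.6, 35.9 and 23 CPM after sepsis. In spleen it was at 27.3, 46.5 and 90.3 CPM after saline and at 65.5, 72.2 and 105 CPM after sepsis, so the tissues overlapped after saline and not after sepsis. Its tissue difference was -0.74 ± 0.67 (adjusted p = 0.720) among saline libraries and -1.42 ± 0.68 (adjusted p = 0.385, edgeR) among septic ones, and the average of -1.08 ± 0.48 did not pass either (adjusted p = 0.218). Of the alternatives, DESeq2 called this average (adjusted p = 0.0321).

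Tap2 (ENSMUSG00000024339, chr17:34203527-34216321, plus strand) was at 18.3, 7.85 and 6.57 CPM in BM after saline and at 1.76, 13.2 and 12.7 CPM after sepsis. In spleen it was at 0.541, 13.9 and 6.44 CPM after saline and at 6.79, 8.96 and 83.8 CPM after sepsis. The lowest library rested on 4 counts and the highest, spleen sepsis replicate 3, was more than any other by a wide margin. The tissue difference was 0.64 ± 1.27 after saline and -1.84 ± 1.30 after sepsis, and the latter became 0.25 without spleen sepsis replicate 3. With an average of -0.60 (95% confidence interval -2.47 to 1.27, adjusted p = 0.752, edgeR), no direction could be given for Tap2 at this spread.

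Tapbp (ENSMUSG00000024308, chr17:33915899-33929292, plus strand) was at 46.1, 70.1 and 29.4 CPM in BM after saline and at 26.9, 40.5 and 45.9 CPM after sepsis. The splenic libraries were at 50.7, 48.9 and 139 CPM after saline and at 58.5, 43.9 and 299 CPM after sepsis, and apart from replicate 3 of both splenic groups they lay within the BM range. The average tissue difference was -1.27 ± 0.52 (adjusted p = 0.185, edgeR) and -0.55 without spleen sepsis replicate 3 (adjusted p = 0.592), while DESeq2 called it (adjusted p = 0.0441). In the annotation, 29% of the exonic bases of Tapbp also belong to another gene, as do 18.5% of Tap2, 14.7% of Psmb8, 5.79% of Psmb9 and 3.87% of Tap1. Whether counting used strand is not given in the sources used here, so reads there cannot be assigned to a gene with certainty.

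Psmb8 and Psmb9 encode the immunoproteasome subunits LMP7 and LMP2, which replace the constitutive subunits encoded by Psmb5 and Psmb6. Psmb8 (ENSMUSG00000024338, chr17:34197721-34201454, plus strand) was at 273, 363 and 213 CPM in BM after saline and at 280.0, 169 and 308 CPM after sepsis. It was at 670.0, 327 and 658 CPM in spleen after saline and at 797, 823 and 361 CPM after sepsis, with 2 splenic libraries, spleen saline replicate 2 and spleen sepsis replicate 3, inside the BM range. Its average tissue difference was -1.18 ± 0.36 (95% confidence interval -1.92 to -0.43, adjusted p = 0.0671, edgeR). It was called without spleen saline replicate 2 (adjusted p = 0.0469) and without spleen sepsis replicate 3 (-1.30, adjusted p = 0.0111), and under 7 of 20 alternatives in all.

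Psmb9 (ENSMUSG00000096727, chr17:34181987-34187764, minus strand) was at 106, 167 and 98.3 CPM in BM after saline and at 96.0, 65.6 and 103 CPM after sepsis. In spleen it was at 112, 26.4 and 264 CPM after saline and at 298, 212 and 98.1 CPM after sepsis. Both the lowest and the highest libraries were splenic. The tissue difference was -0.12 ± 0.67 after saline, of a sign that library size alone, limma-voom and leaving out BM saline replicate 1 or 3 or spleen saline replicate 3 turned (values up to 0.86), and -1.20 ± 0.68 after sepsis. The average was -0.66 ± 0.47 (adjusted p = 0.462, edgeR) and was called under no alternative.

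The ratio of an immunoproteasome subunit to the subunit it replaces removes the scaling of the library. Per kilobase of exon, Psmb8 over Psmb5 was 1.0, 1.14 and 0.603 in BM after saline and 0.642, 0.735 and 0.599 after sepsis. In spleen this ratio was 8.85, 6.94 and 3.64 after saline and 1.49, 2.89 and 3.95 after sepsis. All 6 splenic ratios were above all 6 BM ratios, and 2 of the 3 septic splenic ratios were below the lowest saline one. How often the ratios of other gene pairs separate in this way was not counted. Psmb5 itself was at 61.3 to 137 CPM in BM and 12.5 to 142 CPM in spleen, with a tissue difference of 1.01 ± 0.49 (adjusted p = 0.268, edgeR). After saline, Psmb5 was at 20.1, 12.5 and 48.1 CPM in spleen and at 72.2, 85.0 and 94.0 CPM in BM. The high saline ratios in spleen thus stood where the denominator was low, and Psmb8 itself overlapped between the tissues. Psmb9 over Psmb6 was 0.0514 to 0.0799 in BM and 0.0337 to 0.333 in spleen, where spleen saline replicate 2 gave the lowest value and the other 5 libraries lay above the BM range. Psmb10 over Psmb7 was 3.25 to 5.51 in BM and 3.63 to 595 in spleen, where spleen saline replicate 3 (5.11) and spleen sepsis replicate 1 (3.63) lay inside the BM range. Its highest values, 443 in spleen saline replicate 2 and 595 in spleen sepsis replicate 3, stood where Psmb7 was at 1.32 and 1.46 CPM. These ratios are given as descriptions, with no test.

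**Figure D2:**
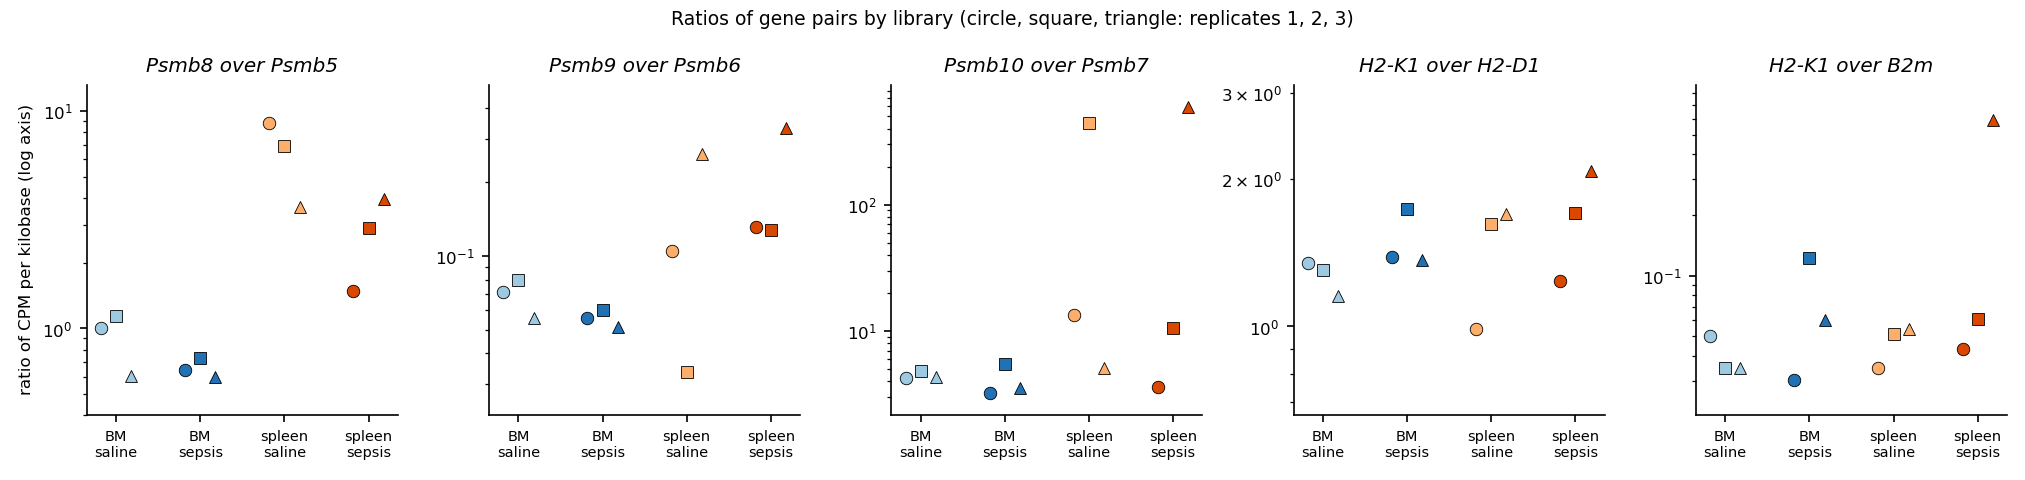
Ratios of CPM per kilobase of exon (log axis) for 5 gene pairs in the 12 libraries, with replicates 1, 2 and 3 as circle, square and triangle. Psmb8 over Psmb5 does not overlap between BM (0.599 to 1.14) and spleen (1.49 to 8.85), Psmb10 over Psmb7 does overlap, and H2-K1 over B2m in spleen sepsis replicate 3 (0.590) lies above the other 11 libraries. How often other gene pairs separate was not counted.

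Nlrc5 (ENSMUSG00000074151, chr8:94434356-94527272, plus strand), the class I transactivator, was with Tap2 the least abundant member per kilobase of exon. It was at 2.58, 10.1 and 10.8 CPM in BM after saline and at 22.7, 19.7 and 16.4 CPM after sepsis. The splenic libraries were at 34.2, 29.5 and 16.3 CPM after saline and at 78.6, 7.40 and 90.5 CPM after sepsis, so BM and spleen did not overlap after saline and did after sepsis. The average tissue difference was -1.68 ± 0.65 (adjusted p = 0.153, edgeR), as large as that of H2-T23 but with a wider error, and DESeq2 called it (adjusted p = 0.0186).

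In order of level per kilobase of exon, B2m stood first with 3249 to 9073 CPM per kilobase across the 4 group means. H2-K1 followed at 172 to 654 and H2-D1 at 119 to 386 CPM per kilobase, and the libraries of these neighbours overlapped after saline in both tissues and not after sepsis. Psmb8 was at 74.7 to 195 CPM per kilobase, H2-T23 at 17.5 to 66.1, Psmb9 at 24.1 to 55.4 and Tapbp at 10.4 to 36.9, and the latter 3 overlapped in the spread of their libraries. Tap1 at 5.51 to 14.8, Tap2 at 1.84 to 8.77 and Nlrc5 at 0.922 to 6.93 CPM per kilobase formed the low end, where Tap2 and Nlrc5 overlapped.

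**Figure D3:**
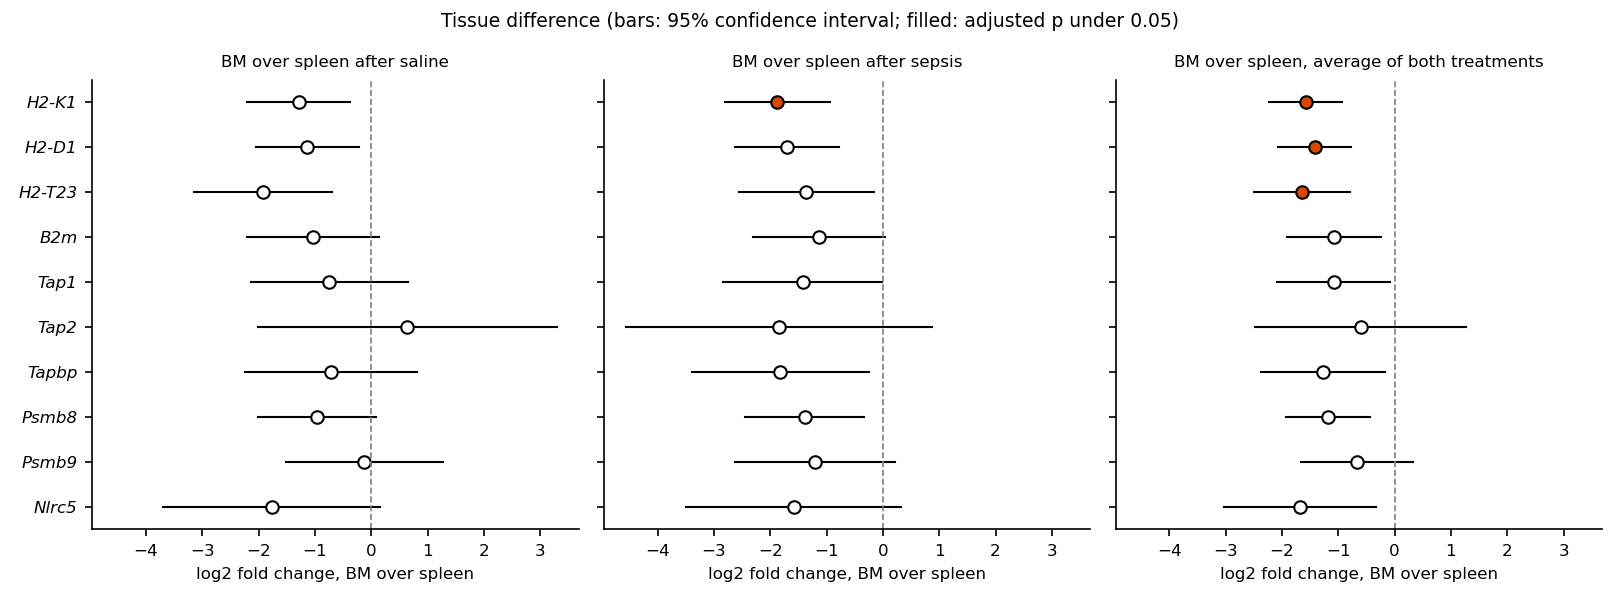
Log2 fold change of BM over spleen for the 10 genes after saline, after sepsis and averaged over both treatments, with 95% confidence intervals from edgeR as bars and filled points where the adjusted p over all genes is under 0.05. H2-K1, H2-D1 and H2-T23 are filled in the average, and H2-K1 after sepsis.

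None of the 10 genes passed the test for a change with sepsis in either tissue. In BM, 0% of all genes were called with edgeR, so 0 of 10 members carries no information about the members. There, 717 genes and 0 members had an unadjusted p under 0.05, limma-voom called 0 genes and DESeq2 called 208 genes and 0 members. The members' log2 fold changes of sepsis over saline in BM ran from -0.49 for Psmb9 to 1.32 for Nlrc5, with a median of -0.18 against -0.08 over all genes. H2-K1 was at 0.06 (95% confidence interval -0.85 to 0.96), H2-D1 at -0.20 (-1.10 to 0.70) and H2-T23 at 0.04 (-1.14 to 1.22). Nlrc5 was at 16.4 to 22.7 CPM in the 3 septic BM libraries and at 2.58 to 10.8 CPM in the 3 saline ones. The share of all genes with such a gap was not counted, so the gap is a description alone. The difference of Nlrc5 was 1.32 ± 0.91 and did not pass (95% confidence interval -0.57 to 3.22, edgeR).

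In spleen, 0 of 10 members were called against 0.158% of all genes, with edgeR, and 0 members had an unadjusted p under 0.05 or were called by limma-voom or DESeq2. The median of the members was 0.58 and that of all genes -0.08, with 8 members above 0 and H2-T23 (-0.52 ± 0.57) and B2m (-0.35 ± 0.56) below. Leaving out spleen sepsis replicate 3 gave medians of 0.27 for the members and -0.44 for all genes. H2-K1 was at 0.64 ± 0.43 (95% confidence interval -0.26 to 1.55, adjusted p = 0.554) and at 0.28 without spleen sepsis replicate 3. Without that library, Tap2 moved from 2.24 to 0.23, Tapbp from 0.75 to -0.61 and B2m from -0.35 to 0.16. The sign or size of these 3 differences rested on that library.

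Whether the tissue difference itself depended on sepsis was tested with the interaction term, the BM over spleen difference after sepsis minus that after saline. Of all genes 0% were called with edgeR and 0 of 10 members, while 1556 genes and 0 members had an unadjusted p under 0.05, limma-voom called 0 genes and DESeq2 495 genes and 0 members. The interaction was -0.59 ± 0.61 for H2-K1, -0.57 ± 0.61 for H2-D1 and 0.56 ± 0.80 for H2-T23. The widest interval was that of Tap2, from -6.27 to 1.29, and the interval of H2-D1 ran from -1.84 to 0.70. A larger tissue difference of H2-K1 after sepsis than after saline was thus not shown.

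**Figure D4:**
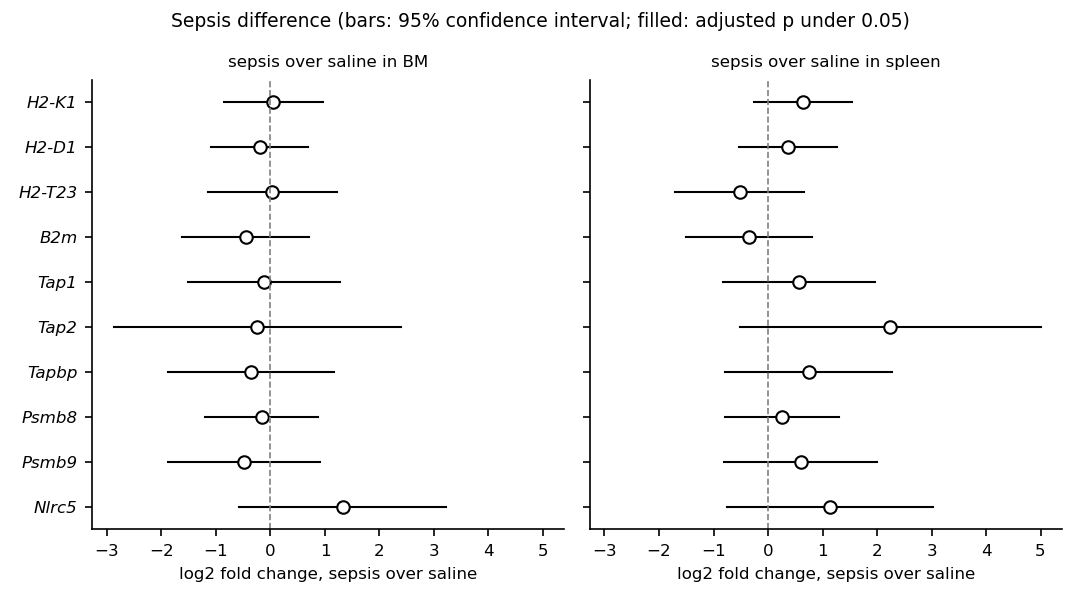
Log2 fold change of sepsis over saline for the 10 genes in BM and in spleen, with 95% confidence intervals from edgeR as bars. Every interval includes 0 and no point is filled, since no member passed the adjusted p threshold.

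The rest of the pathway was read from lists of genes chosen by function. In the average tissue comparison, 2.68% of all 20263 genes tested were lower in BM, 419 were higher, and 53.1% had log2 fold changes below 0. The counts of each list below stand against these values. Among the other class I heavy chains and class I-like genes, 3 of 16 tested genes were lower in BM and 0 higher in the average tissue comparison, with a list median of -1.10. H2-Q6, a Qa-2 family gene, was at 14.2 to 49.9 CPM in BM and 78.9 to 229 CPM in spleen (-2.40 ± 0.43, adjusted p = 0.00174, edgeR). H2-M3, which presents formylated peptides of bacteria, was at 0.680 to 7.48 CPM in BM and 21 to 109 CPM in spleen (-3.77 ± 0.66, adjusted p = 0.00147). H2-K2 was at 2.07 to 5.77 CPM in BM and 11.7 to 50.5 CPM in spleen (-3.06 ± 0.72, adjusted p = 0.0153). The genes H2-Q2, H2-T3 and H2-M2 did not pass the filter.

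Another list held 11 other peptide loading genes, among them chaperones, Sec61 genes, Erap1 and Tapbpl. Of these 11, 0 were lower in BM and 1 was higher, with a median of -0.07, while 419 of all 20263 genes were higher. With 2.68% of all genes lower in BM, 0 of 11 carries no information about the list. The gene that was higher was Canx, which encodes calnexin, the chaperone of newly made heavy chains, at 639 to 873 CPM in BM and 216 to 475 CPM in spleen (1.16 ± 0.32, adjusted p = 0.0411, edgeR). Calr, the chaperone calreticulin of the loading complex, was at 199 to 485 CPM in BM and 111 to 1397 CPM in spleen (-0.08 ± 0.46), and Pdia3, the disulfide isomerase bound to tapasin, differed by 0.07 ± 0.38. Erap1, the aminopeptidase that trims peptides in the endoplasmic reticulum, differed by 0.47 ± 0.82.

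Proteasome genes outside the members showed no call in either direction. Of 6 other immunoproteasome and proteasome activator genes 0 passed, with a median of -0.13. Psmb10, the third immunoproteasome subunit, differed by -0.57 ± 0.33, and the activator subunits Psme1 and Psme2 by -0.40 ± 0.35 and -0.52 ± 0.43 (adjusted p = 0.364, 0.553 and 0.529, edgeR). Of the 14 genes of the constitutive proteasome core, 0 passed, 13 had log2 fold changes above 0 and the median was 0.41, so their median lay on the other side of that of all genes (-0.13) from that of the members (-1.22). At an unadjusted p under 0.05 stood 1 gene of each of the 2 lists, and limma-voom and DESeq2 called 0. Psmb5, Psmb6 and Psmb7, the constitutive catalytic subunits, differed by 1.01 ± 0.49, 0.54 ± 0.40 and 0.72 ± 0.79.

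Among 22 regulators of class I transcription and interferon signalling, 1 was lower in BM, 0 were higher and 20 had log2 fold changes below 0, with a median of -0.84. The 1 of 22 stood against 2.68% of all genes lower in BM, and the 20 against 53.1% of all genes below 0. Irf8, an interferon regulatory factor of B cells and myeloid cells, was at 2.23 to 11.2 CPM in BM and 31.7 to 267 CPM in spleen (-3.69 ± 0.61, adjusted p = 0.000874, edgeR). Irf1, which acts on class I promoters after interferon gamma, differed by -1.71 ± 0.65 (adjusted p = 0.148). Rfx5, a subunit of the complex that recruits NLRC5, differed by -1.62 ± 1.52, and Ciita, the class II transactivator, by -2.75 ± 0.85 (adjusted p = 0.581 and 0.0740).

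Of 11 tested targets of interferon gamma outside the class I pathway, 3 were lower in BM, 0 higher and all 11 had log2 fold changes below 0, with a median of -1.95. Of all genes, 2.68% were lower in BM and 53.1% had log2 fold changes below 0. The called genes were guanylate-binding proteins, which attack vacuoles of intracellular microbes. Gbp3 was at 1.19 to 7.26 CPM in BM and 3.92 to 144 CPM in spleen (-4.29 ± 0.75, adjusted p = 0.00144, edgeR). Gbp4 was at 0 to 3.77 CPM in BM and 6.60 to 70.4 CPM in spleen (adjusted p = 0.00514), and Gbp9 at 0 to 7.06 CPM in BM and 6.72 to 72.6 CPM in spleen (adjusted p = 0.0156). After sepsis and after saline taken apart, 1 of the 11 targets was called in each, against 1.18% and 0.725% of all genes lower in BM.

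**Figure D5:**
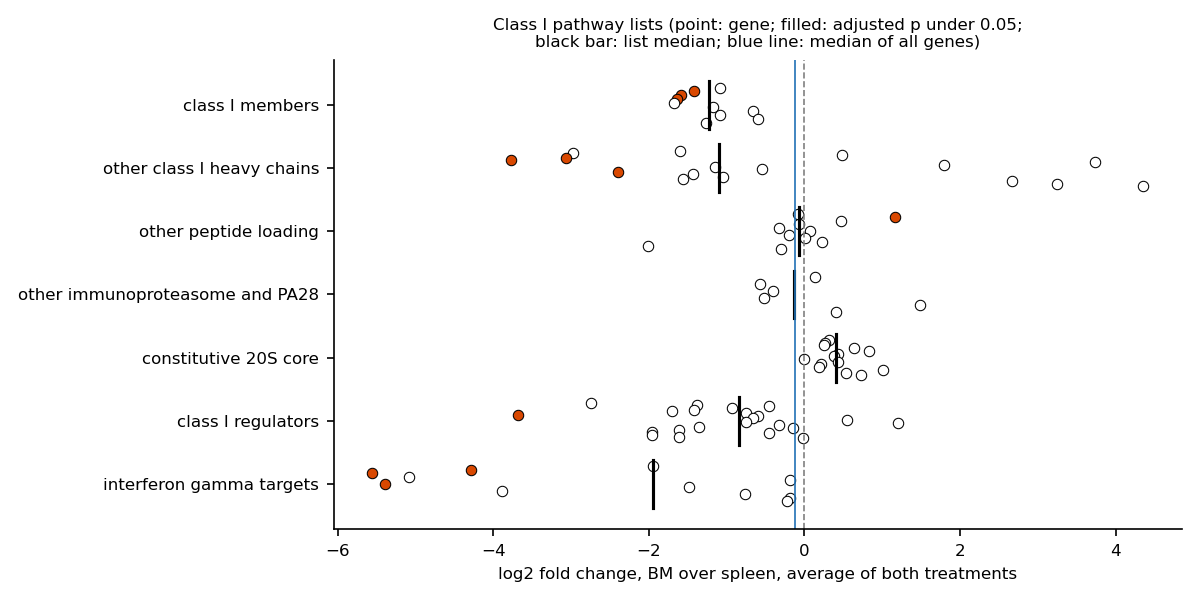
Log2 fold change of BM over spleen, averaged over both treatments, for each gene of the class I members and 6 related lists, with filled points where the adjusted p is under 0.05, a black bar at each list's median and a blue line at the median of all genes (-0.13). The members (median -1.22), heavy chains, regulators and interferon gamma targets lie mostly to the left, and the constitutive proteasome core (median 0.41) to the right.

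Markers of other cell types moved with the tissue as well. In the average tissue comparison 12 of 12 B cell markers, 6 of 8 plasma cell markers and 6 of 9 T cell markers were lower in BM, and 11 of 18 MK and platelet markers were higher in BM (edgeR). Over all 20263 genes tested, 2.68% were lower and 419 genes were higher in BM in this comparison. Summed T cell markers were at 6.80 to 108 CPM in BM and 176 to 2590 CPM in spleen, and summed plasma cell markers at 1485 to 4697 CPM in BM and 7761 to 80834 CPM in spleen. The plasma cell sum was mostly Jchain, at 1344 to 4603 CPM in BM and 6552 to 80009 CPM in spleen. Of 6 tested NK cell markers 1 was lower in BM, and of 9 macrophage and monocyte markers 0 passed with edgeR, had an unadjusted p under 0.05 or were called by limma-voom or DESeq2, with sums of 323 to 991 CPM in BM and 92.9 to 1958 CPM in spleen. Of 6 dendritic cell markers 0 passed with edgeR (2 at an unadjusted p under 0.05, 1 with limma-voom, 2 with DESeq2), of 10 neutrophil markers 2 were higher in BM while 7 had log2 fold changes below 0 with a list median of -2.51, and of 7 erythroid markers 1 was higher in BM. Neutrophil markers summed to 71.8 to 273 CPM in BM after saline and 2250 to 16681 CPM in BM after sepsis, and to 333 to 21010 CPM in spleen after saline and 66.8 to 10396 CPM after sepsis. C1qa and Cd14, markers of macrophages and monocytes, were at 0 in all 3 spleen sepsis libraries. B cells, T cells and plasma cells also express class I genes, and the part of these cells in the class I difference was not tested.

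The members varied together over all libraries more than within groups. Over the 12 libraries, 39 of the 45 pairs of members had a positive Pearson correlation of log2 CPM, with a median of 0.38 and the highest, 0.94, between H2-K1 and H2-D1, whose transcripts share sequence as given above. Once the group means were removed, 21 of 45 pairs were positive and the median was -0.10. Within groups the highest were Psmb8 and Psmb9 (0.83), H2-K1 and Tapbp (0.82) and H2-T23 and Psmb8 (0.75). The lowest was B2m and Tap2 (-0.80). These pairs were picked as the extremes of the 45. Spleen sepsis replicate 3 stood apart from its group for B2m (1410 CPM), Tap2 (83.8 CPM) and Tapbp (299 CPM). Correlations without it were not computed, and how often other gene pairs reach such values was not counted. Genes of a library share its depth and scaling, and no test was made. The mean z score of the 10 members was -0.73 to -0.37 in the 6 BM libraries and 0.05 to 0.88 in the 6 splenic ones.

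The genes outside the list whose log2 CPM followed this mean z score most closely over the 12 libraries were Hepacam2 (Pearson r = 0.96), Slc9a7 (0.95), Adgre5 (0.95), Msn (0.95) and Foxp1 (0.95). Hepacam2 and Slc9a7 were near the floor in BM, at 0 to 0.130 and 0 to 0.994 CPM, where 3 counts stand for 0.105 to 0.405 CPM. In spleen these 2 genes were at 1.65 to 90.8 and 1.90 to 19.1 CPM. Msn, which encodes moesin, a linker of membrane and actin, was at 89.7 to 145 CPM in BM and 180 to 339 CPM in spleen. Adgre5, which encodes the leukocyte receptor CD97, was at 21.9 to 35.6 CPM in BM and 73.7 to 190 CPM in spleen, and Foxp1, a transcription factor of lymphocytes, at 42.8 to 84.8 and 119 to 448 CPM. They were chosen out of all tested genes for this likeness, so the correlations are a description.

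B2m and its heavy chains did not keep a fixed balance in spleen sepsis replicate 3. Per kilobase of exon, H2-K1 over B2m was 0.0305 to 0.121 in BM, 0.0347 to 0.0609 in the other 5 splenic libraries and 0.590 in spleen sepsis replicate 3. H2-D1 over B2m showed the same departure, with 0.0220 to 0.0700 in BM, 0.0315 to 0.0357 in the other 5 splenic libraries and 0.284 in that library. Its total count was 10010153, within the range of the others, and it was also the lowest library for Psmb6 (151 CPM) and for Psme2 (107 CPM). Among the BM libraries, BM sepsis replicate 2 had the highest H2-K1 over B2m (0.121) and the lowest B2m (1502 CPM).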

How the data were processed

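Counts per gene were deposited by the authors as raw whole-number counts. The submitters' processing notes name STAR 2.7.2b, R 3.6.1, DESeq2 1.26 and the genome build GRCm38. The kits were SMART-Seq HT and Nextera XT, and the sources used here do not give strand use or the treatment of reads with several matches. All 55536 Ensembl identifiers matched GENCODE M21, from which symbols, positions and exonic lengths were taken. The 12 libraries were fitted together (1 mean per group) with edgeR 4.0.16 in R 4.3.3: filterByExpr with a minimum count of 10, TMM factors, quasi-likelihood F test, Benjamini-Hochberg adjustment over 20263 genes, threshold 0.05. Alternatives were other scaling, other filters, DESeq2 1.42.0, limma 3.58.1 (voom with quality weights), a replicate block, removal of antigen receptor segment genes, and leaving out each library. The script was tested on simulated data. Genes outside the members were named by a rule: fixed partners of each list, up to 3 called genes per list with the smallest p, and the 5 genes most like the members' mean z score. Of the genes this rule names, 1 is not reported here. The members and the lists were chosen with earlier results of these data known. Promoter windows came from the first RefSeq entry of each gene. Total counts were 7756762 to 27386184, and limits drawn from counts cover counting error only. The spread between libraries, with a biological coefficient of variation of 143%, also limited the precision of the tests.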

Additional observations from a re-analysis of the deposited data

How the results depend on the processing

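Of 1240 pairings of a member's log2 fold change with an alternative, 1200 kept their direction, 40 reversed, 25 lost a call and 30 gained one. In the average tissue comparison, where 3 members were called, library size alone called 1, limma-voom 5 and DESeq2 8, and leaving out 1 library gave 1 to 5, with 1 without BM saline replicate 1 or 2 and 5 without spleen sepsis replicate 3. After sepsis, where 1 member was called, 0 were called with library size alone or with the 6 libraries compared alone, 2 with RLE factors, no filter, the stricter filter or segment genes removed, 3 with DESeq2 and 4 with limma-voom, and leaving out 1 library gave 0 to 3. After saline, where 0 were called, limma-voom called 1 and DESeq2 3. Both sepsis comparisons and the interaction gave 0 members under every alternative run. The cause of these differences was not tested.

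Counts over all genes moved by more than 1.5 times as well. The 962 genes of the average tissue comparison became 1515 with library size alone, 1517 with limma-voom and 2615 with DESeq2. The 253 genes after saline became 529 with no filter, 1313 with DESeq2 and, with 1 library left out, 395 without spleen sepsis replicate 2, 419 without spleen saline replicate 3, 423 without spleen sepsis replicate 1 and 467 without spleen sepsis replicate 3. The 361 after sepsis became 595 with no filter, 724 with limma-voom and 1479 with DESeq2. The 32 genes of sepsis in spleen became 0 with limma-voom or the 6 libraries alone, 20 with the stricter filter, 187 with no filter and 995 with DESeq2, and leaving out any library but spleen saline replicate 2 gave 52 to 138, the highest without spleen saline replicate 3. The 0 genes of sepsis in BM became 81 with no filter and 208 with DESeq2, and up to 12 with 1 library left out (without spleen sepsis replicate 1). The 0 of the interaction became 130 with no filter, 495 with DESeq2 and 3 to 48 with 1 library left out, the highest without spleen saline replicate 3.

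The deviations from the group means in 18 same-numbered pairs of libraries correlated between -0.06 and 0.04 over all genes tested. Whether same-numbered libraries shared an animal cannot be told from this, since the biological coefficient of variation was 143% and the labels do not name the animals. With the replicate number as a block (the replicate block), 0 members were called after sepsis in place of 1, the average comparison called 3 members and 955 genes, and the reversed values were 0.0742 for Psmb9 after saline and 0.0111 for the average of Tap2.

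Other reversals were of values that had not passed. Psmb9 after saline was 0.43 with library size alone and 0.25 with limma-voom, and -0.60 to 0.86 with 1 library left out, while Tapbp was -0.99 to 0.00559. Tap2 ran from -2.20 to 0.25 after sepsis and from -0.85 to 0.48 in the average, where limma-voom gave 0.38. For sepsis in BM, H2-T23 was -0.0293 with RLE factors, -0.0292 with DESeq2 and H2-K1 -0.0119 with limma-voom. Leaving out 1 library there gave -0.0676 to 0.15 for H2-K1, -0.22 to 0.29 for H2-T23, -0.38 to 0.18 for Tap1, -0.56 to 0.36 for Tap2, -0.60 to 0.0238 for Tapbp and -0.32 to 0.0876 for Psmb8. For sepsis in spleen it gave -0.83 to 0.16 for B2m, -0.61 to 1.44 for Tapbp and -0.00274 to 0.58 for Psmb8, and limma-voom gave -0.15 for Tapbp. The interaction of B2m was 0.0640 with RLE factors and with DESeq2 and 0.0115 with library size alone, and with 1 library left out it was -0.68 to 0.40 for B2m, -0.38 to 0.60 for Nlrc5 and -1.79 to 0.26 for Tapbp.

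Depth limited the low genes, since 3 counts stood for 0.105 to 0.405 CPM and the lowest Tap2 library held 4 counts. With 3 libraries a group, the 95% confidence interval of sepsis in BM for H2-K1 still ran from -0.85 to 0.96.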
